A study of Mus musculus with 6 samples.

Results

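Among the 55291 gene symbols counted in sorted cells of the pubertal mouse mammary gland, 56 were detected in both libraries of terminal end bud (TEB)-distal Gpr125+ cells and were at or near 0 in the other 4 libraries. A gene was taken when it had at least 20 reads in both TEB-distal libraries and at most 3 reads in each Gpr125-negative and each nipple-proximal Gpr125+ library. Symbols of 11 families (Col, Lam, Itg, Sema, Sox, Wnt, Hox, Cxcl, Ccl, Serpin and Adgr) were set aside by the same rule, which removed 0 genes from this set. The genes were thus chosen by the raw read counts of these 6 libraries, so their higher level in TEB-distal cells is a description. Calls of the fits across all genes are given further on only beside the share of all genes called, and support nothing about these genes. Both TEB-distal libraries held at least 20 reads for 12038 symbols outside those families, of which the 56 are 0.465%.

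All 6 libraries came from 6-week-old pubertal mice with 1 Adgra3 allele carrying the lacZ reporter (genotype Adgra3-lz/+), so the controls carry the reporter allele too. Glands of 5 mice were pooled per sample and cut at the lymph node into TEB-distal and nipple-proximal parts, and CD31+, CD45+ and Ter119+ cells were removed before the sort. Gpr125+ cells were high in surface CD49f and cleaved FDG, a fluorogenic substrate of β-galactosidase made under the Adgra3 promoter, while Gpr125-negative cells were high in CD49f and did not. There were 2 libraries of Gpr125-negative cells, whose region the labels leave out, 2 of TEB-distal Gpr125+ cells and 2 of nipple-proximal Gpr125+ cells.

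A terminal end bud is the bulbous tip of a growing duct at puberty, with an outer layer of basal-type cap cells and an inner mass of body cells. It drives the duct through the fat pad and disappears once the pad is filled. Behind it lies a duct of luminal cells lined by contractile basal cells. Luminal cells make the caseins and other milk proteins in quantity once pregnancy hormones, prolactin among them, act through STAT5.

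Libraries held 20134890 to 37296640 counted reads, and 3 reads corresponded to 0.0804 to 0.149 CPM (counts scaled to the library total). Adgra3, whose promoter drives the reporter, had 385 and 142 reads in TEB-distal cells, 391 and 262 in nipple-proximal cells, and 1658 and 550 in cells labelled Gpr125-negative, so its transcript did not follow the labels. The 12 basal marker genes examined all had at least 20 reads in both TEB-distal libraries, and their summed level was 4220 and 23100 CPM there, 9560 and 12600 CPM in nipple-proximal cells and 4230 and 3150 CPM in Gpr125-negative cells. The summed level of 12 endothelial markers was 20.3 and 23.8 CPM in TEB-distal cells, 278 and 25.7 CPM in nipple-proximal cells and 1780 and 876 CPM in Gpr125-negative cells. The part of these differences in the absence of the 56 genes from the other libraries was not tested.

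The reference sequence around the start of 5 of the genes is given first, because they include both milk protein genes of the set, the next named coding genes by their weaker TEB-distal level (Clec2h and Nppb), and Lrfn5, a gene that the study names. Each runs 5′ to 3′ from 250 bases before to 50 bases after the gene's start in RefSeq on GRCm38.p6. Capitals mark TTCNNNGAA, the palindrome bound by STAT factors, TATAAA, the TATA box, and ACAAAG, a core of SOX and TCF sites, on either strand. AACAAT, a further SOX core, was searched for as well.
Csn2 (chr5:87699376-87699675, minus strand): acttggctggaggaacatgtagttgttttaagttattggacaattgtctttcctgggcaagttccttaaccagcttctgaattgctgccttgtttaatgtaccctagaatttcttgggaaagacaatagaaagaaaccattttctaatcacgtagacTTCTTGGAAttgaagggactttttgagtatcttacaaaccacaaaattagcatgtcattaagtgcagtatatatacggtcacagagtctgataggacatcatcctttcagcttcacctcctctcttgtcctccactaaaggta
Csn1s2a (chr5:87774200-87774499, plus strand): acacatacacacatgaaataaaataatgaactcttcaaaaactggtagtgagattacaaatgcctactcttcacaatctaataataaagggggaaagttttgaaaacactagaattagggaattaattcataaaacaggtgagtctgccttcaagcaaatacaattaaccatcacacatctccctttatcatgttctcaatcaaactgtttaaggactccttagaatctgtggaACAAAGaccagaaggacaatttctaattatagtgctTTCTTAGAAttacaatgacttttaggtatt
Clec2h (chr6:128662135-128662434, plus strand): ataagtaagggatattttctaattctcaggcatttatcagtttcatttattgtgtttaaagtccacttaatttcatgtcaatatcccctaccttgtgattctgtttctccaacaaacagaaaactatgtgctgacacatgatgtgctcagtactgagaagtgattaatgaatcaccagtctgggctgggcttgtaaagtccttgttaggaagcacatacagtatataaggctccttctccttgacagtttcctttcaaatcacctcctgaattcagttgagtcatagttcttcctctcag
Nppb (chr4:147985650-147985949, plus strand): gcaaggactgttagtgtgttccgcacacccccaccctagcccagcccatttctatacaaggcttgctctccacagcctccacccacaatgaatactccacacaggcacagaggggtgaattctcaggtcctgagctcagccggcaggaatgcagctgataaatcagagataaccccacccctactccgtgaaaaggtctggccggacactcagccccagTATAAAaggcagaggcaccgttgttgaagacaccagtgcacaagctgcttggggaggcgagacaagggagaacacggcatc
Lrfn5 (chr12:61522917-61523216, plus strand): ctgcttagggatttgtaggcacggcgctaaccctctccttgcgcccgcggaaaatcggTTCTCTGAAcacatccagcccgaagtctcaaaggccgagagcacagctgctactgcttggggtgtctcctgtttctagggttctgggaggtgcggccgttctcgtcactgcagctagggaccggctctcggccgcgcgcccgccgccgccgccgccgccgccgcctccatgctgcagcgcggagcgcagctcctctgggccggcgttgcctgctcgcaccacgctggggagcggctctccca
In the Csn2 window a TTCNNNGAA match begins at position -93 from the start, and in Csn1s2a at position 20. The Lrfn5 window has a match at position -192, a GC content of 67.7% and 32 CG dinucleotides, against 38.7% and 2 in Csn2, 32.3% and 0 in Csn1s2a, and 38% and 0 in Clec2h. Nppb has TATAAA at position -31, and its GC content is 55.7%. A match is a description of the letters in the window and does not show that a factor binds there.

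Reads of the 56 genes added up to 3160 in the first and 3324 in the second TEB-distal library, against 28 and 23 in nipple-proximal cells and 14 and 11 in Gpr125-negative cells. In bulk samples such as these, fewer cells of a type and less RNA per cell cannot be told apart. The median gene had 47.5 reads in the first TEB-distal library (range 21 to 167) and 45 in the second (range 21 to 219). All 4 other libraries were at 0 for 27 genes, and the other 29 had 1 to 3 reads in at least 1 of them. Tstd3 was the only gene of the set with reads in all 4 other libraries (2, 2, 3 and 2). The lowest level that any of the genes had in a TEB-distal library was 0.715 normalized CPM. At that level, the library sizes used in the normalization would give 14.6 and 15.2 reads for nipple-proximal cells and 33.2 and 21.1 for Gpr125-negative cells. The number of symbols with any read did not follow library size. It was lowest, at 17401, for the second Gpr125-negative library, which held 33300561 reads. Further, 346 and 315 genes had at least 20 reads in the first or second TEB-distal library alone, with at most 3 in its replicate. Whether low counts elsewhere reflect missed transcripts was not tested.

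**Figure D1:**
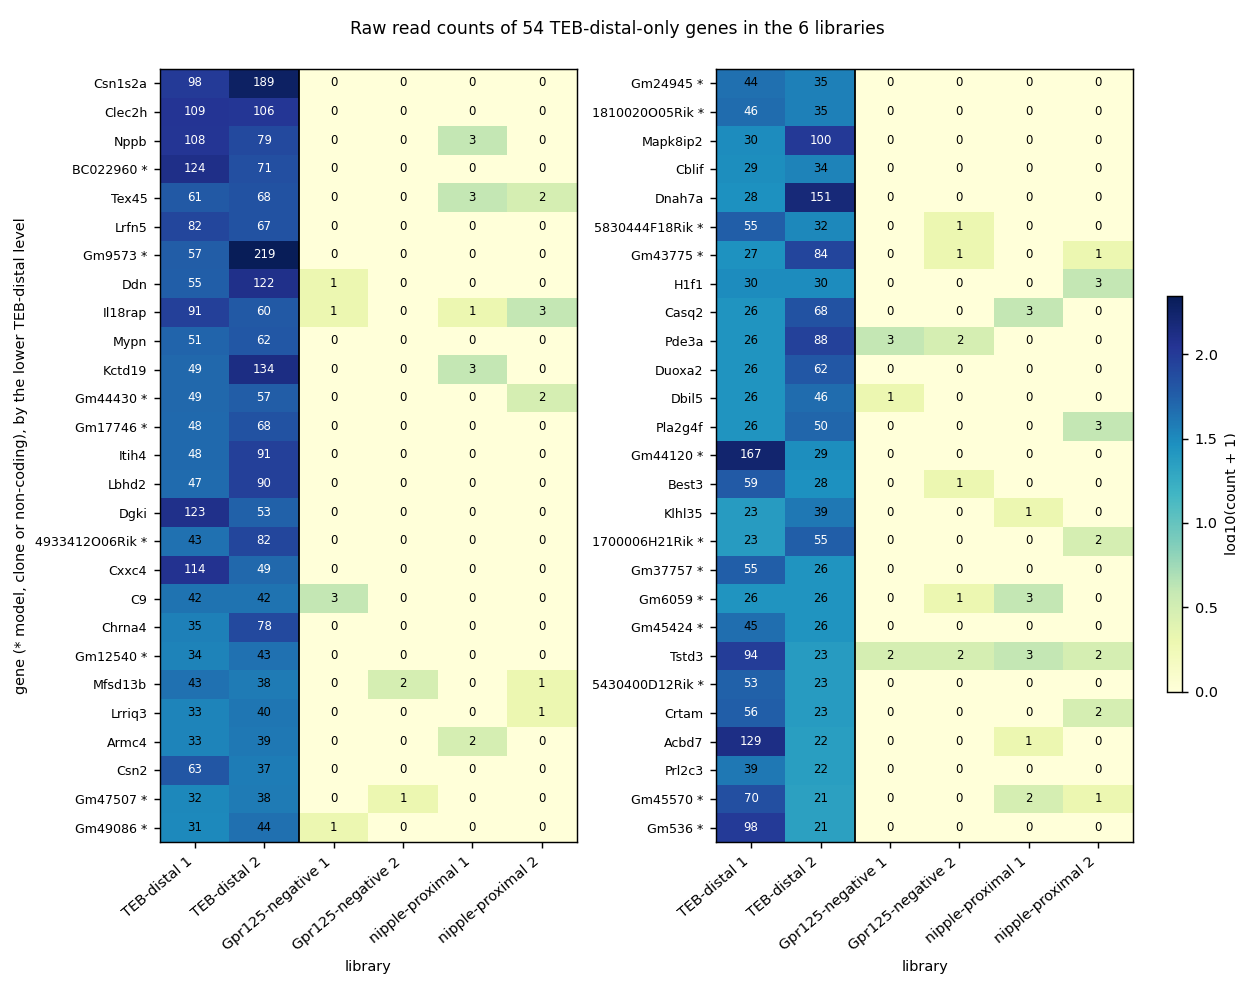
Raw read counts of 54 of the 56 genes (rows, ordered by the lower of their normalized levels in the TEB-distal libraries) in the 6 libraries (columns), with the count printed in each cell and colour giving log10(count + 1). An asterisk marks gene models, clones and non-coding genes. The columns left of the line hold 21 to 219 reads and those right of it 0 to 3, as the rule requires.

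The set was of low abundance, as were the genes of the pairs nearest to it in number. The median of the lower count of a gene's pair of libraries was 32 in the set, and 30 in the first Gpr125-negative library's pairs with each TEB-distal library. The mean normalized level in the TEB-distal libraries was between 0.886 and 5.13 CPM with a median of 1.89 CPM. Of the 12038 symbols with at least 20 reads in both TEB-distal libraries, the 11861 in the GENCODE M21 annotation had a median of 21.4 CPM. The highest of the 56 lay above 19.5% of all 12038 symbols and the median gene above 5.05%. Normalized by the summed exon length, the median was 0.822 CPM per kilobase in the 54 annotated genes of the set. It was 4.97 CPM per kilobase in the 11861 symbols. The roles below were assigned from general knowledge after the genes were known, and 36 of the 56 are protein-coding genes with a name.

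The set held 2 milk protein genes. Csn1s2a, which encodes an α-S2 casein, had 98 and 189 reads in TEB-distal cells and 0 in the other 4 libraries. Its level of 3.82 and 6.43 normalized CPM was the highest of the 56 by the weaker library, and at least 61.7-fold higher than in Gpr125-negative and at least 35.5-fold higher than in nipple-proximal cells when the latter groups are set at 3 reads per library. Csn2, which encodes β-casein, had 63 and 37 reads and again 0 elsewhere. Both lie in the casein cluster of chromosome 5 (GRCm38), Csn2 at 87692624 to 87699630 on the minus strand and Csn1s2a at 87774567 to 87788797 on the plus strand, 74937 bases apart. They were the closest of the few neighbours in the set, in which 6 of 56 genes lay within 1 Mb of another. The remaining milk genes did not share this pattern. Csn1s1, in the same cluster, had 0 and 105 reads in TEB-distal cells and 54 and 0 in Gpr125-negative cells, and Lalba had 537 reads in the first Gpr125-negative library and 2 and 0 in the TEB-distal libraries. Csn3 was detected in all 6 libraries, with 1394 and 327 reads in TEB-distal cells, 67 and 71 in nipple-proximal cells and 511 and 169 in Gpr125-negative cells. The 9 luminal progenitor markers, Csn3 and Lalba among them, summed to 1810 and 2130 CPM in TEB-distal cells. Their sums were 2050 and 1160 CPM in nipple-proximal cells and 2870 and 570 CPM in Gpr125-negative cells. For 8 hormone-sensing luminal markers the sums were 389 and 76.5, 42.1 and 89.2, and 134 and 22 CPM, in the same order. The part of luminal RNA in the 2 milk protein genes was not tested.

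The 5 other secreted proteins of the set are made by varied organs. Nppb, which encodes the B-type natriuretic peptide of heart muscle, had 108 and 79 reads in TEB-distal cells, 3 and 0 in nipple-proximal cells and 0 in both Gpr125-negative libraries. Its summed reads were 47.1 times those of nipple-proximal cells after scaling, with a 95% interval of 15.9 to 230.6 that covers counting error only. The rule itself required a large ratio, so the interval is a description and no test. Itih4, a heavy chain of the inter-α-trypsin inhibitors of plasma, had 48 and 91 reads and 0 elsewhere. C9, the last component of the complement attack complex, had 42 reads in each TEB-distal library and 3 in the first Gpr125-negative library. Cblif, gastric intrinsic factor, which carries vitamin B12, had 29 and 34 reads, and Prl2c3, a proliferin of the prolactin family, 39 and 22, both with 0 elsewhere.

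A group of 3 genes encodes immune receptors or, for Clec2h, a ligand that such receptors bind. Clec2h, a C-type lectin-like ligand of natural killer cell receptors (chromosome 6, 128662385 to 128677374), had 109 and 106 reads in TEB-distal cells and 0 in the other 4. Its TEB-distal level was 3.93 ± 0.453 normalized CPM (SD, n = 2), at least 47.3-fold above Gpr125-negative and 27.2-fold above nipple-proximal cells at 3 reads per library. Il18rap, the accessory chain of the interleukin-18 receptor, had 91 and 60 reads against 1 and 3 in nipple-proximal cells and 1 and 0 in Gpr125-negative cells. Crtam, an adhesion molecule of activated T cells, had 56 and 23 reads against 2 in the second nipple-proximal library. The 10 leukocyte markers, Ptprc and Cd3e among them, summed to 26 and 19.3 CPM in TEB-distal cells, 20.8 and 13.3 CPM in nipple-proximal cells and 13.1 and 30.6 CPM in Gpr125-negative cells, ranges that overlap. The part of leukocyte RNA in these 3 genes was not tested.

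Of 6 genes best known from neurons, 4 were at 0 outside TEB-distal cells. Lrfn5, a synaptic adhesion protein with leucine-rich repeats (chromosome 12, 61523150 to 61858342), had 82 and 67 reads in TEB-distal cells and 0 in the rest, and was at least 33.0-fold above Gpr125-negative cells at 3 reads per library. Dgki, a diacylglycerol kinase, had 123 and 53 reads, Chrna4, a subunit of the nicotinic acetylcholine receptor, 35 and 78, and Mapk8ip2, a scaffold of the JNK pathway, 30 and 100, each with 0 elsewhere. Dgki was thus higher in the first TEB-distal library, and Chrna4 and Mapk8ip2 in the second. Ddn, which encodes dendrin of dendrites and podocytes, had 55 and 122 reads and 1 read in the first Gpr125-negative library. Of 49 synaptic and neurite adhesion genes listed, 10 had at least 20 reads in both TEB-distal libraries, and Lrfn5 was the only member of the set among them. The 12 neuronal markers summed to 88.1 and 29.6 CPM in TEB-distal cells, 28.1 and 9.17 CPM in nipple-proximal cells and 113 and 11 CPM in Gpr125-negative cells, and their part in this group was not tested.

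The 3 muscle genes were all higher in the second TEB-distal library. Mypn, which encodes the sarcomere protein myopalladin, had 51 and 62 reads and 0 elsewhere. Casq2, the calcium store protein of cardiac muscle, had 26 and 68 reads against 3 in the first nipple-proximal library, and Pde3a, a cyclic nucleotide phosphodiesterase, 26 and 88 against 3 and 2 in the Gpr125-negative libraries. Of 14 skeletal muscle markers, 8 were at 0 in both TEB-distal libraries and 1 had at least 20 reads in both. Their summed level was 17.8 and 11.3 CPM in the TEB-distal libraries, within the 9.97 to 22.1 CPM of the other 4.

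Among 5 genes of the ciliary axoneme or of male germ cells, Dnah7a, a dynein heavy chain, had 28 and 151 reads and 0 elsewhere, the largest ratio of normalized levels between the TEB-distal libraries in favour of the second. Its near-identical relatives Dnah7b and Dnah7c were listed at 0 in all 6 libraries, and reads shared between such copies make the count uncertain. Tex45, named for its expression in testis, had 61 and 68 reads against 3 and 2 in the nipple-proximal libraries. Kctd19, a gene of meiosis, had 49 and 134 reads against 3 in the first nipple-proximal library. Armc4, needed to dock ciliary dynein arms, had 33 and 39, and Dbil5 26 and 46.

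The 3 regulators of transcription or chromatin ranged from 30 to 114 reads in the first TEB-distal library. Cxxc4, a zinc finger protein that binds Dishevelled and restrains Wnt signalling, had 114 and 49 reads and 0 elsewhere. H1f1, a linker histone, had 30 reads in each TEB-distal library and 3 in the second nipple-proximal library. Sox11, a SOX factor of embryonic progenitors, is not in the set, because its family was set aside and it had reads elsewhere. It had 1824 and 1552 reads in TEB-distal cells, 37 and 7 in nipple-proximal cells and 22 and 0 in Gpr125-negative cells.

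The last 9 named coding genes had 23 to 129 reads in the first and 22 to 90 in the second TEB-distal library. Duoxa2, the maturation factor of the dual oxidase Duox2, had 26 and 62 reads and 0 elsewhere. Duox2 itself had 66 and 17 reads in TEB-distal cells, 0 and 9 in nipple-proximal cells and 0 in both Gpr125-negative libraries, and so fell short at both limits. Lbhd2 had 47 and 90 reads with 0 elsewhere. Acbd7, an acyl-CoA-binding protein, had 129 and 22 reads, the largest ratio of normalized levels between the TEB-distal libraries in favour of the first. Tstd3 had 94 and 23, and Mfsd13b, of a transporter superfamily, 43 and 38. Best3, a bestrophin anion channel, had 59 and 28 reads, Lrriq3 33 and 40, Klhl35 23 and 39 and Pla2g4f, a cytosolic phospholipase A2, 26 and 50.

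The remaining 20 members are gene models, clones, pseudogenes and non-coding genes, of which 12 were at 0 outside the TEB-distal libraries. Among them BC022960, a transcribed pseudogene on the X chromosome, had 124 and 71 reads and Gm9573, a predicted coding gene of chromosome 17, had 57 and 219, both with 0 in the other 4 libraries. Gm44430 had 49 and 57 reads against 2 in the second nipple-proximal library, Gm17746 48 and 68 and 4933412O06Rik 43 and 82, Gm17746 and 4933412O06Rik being long intergenic RNAs with 0 elsewhere. Gm44120 had 167 and 29 reads, and Gm536 had 98 and 21. Gm536 is a long intergenic RNA too. The other long non-coding RNAs were Gm47507, Gm49086, 1810020O05Rik, 1700006H21Rik, 5430400D12Rik and Gm45570, the processed pseudogenes were Gm12540, Gm37757 and Gm6059, and Gm24945 is a small nucleolar RNA. 5830444F18Rik, Gm43775 and Gm45424 are, like Gm44430 and Gm44120, models of the annotation's class TEC, transcripts that await experimental evidence. Reads of pseudogenes can come from the parent gene, and reads were counted without regard to strand. Zfp219 had 436 and 1479 reads in TEB-distal cells, 1713 and 991 in nipple-proximal cells and 4328 and 562 in Gpr125-negative cells. Gm49086 overlaps that gene, so the count of Gm49086 is uncertain. The same holds for Gm24945 in Shmt1, 5830444F18Rik in Satb1, Gm43775 in Rbm47 and Gm45570 in Letm2. It holds as well for Dbil5 beside Gemin4 and Glod4, Tstd3 beside Ccnc and Usp45, Kctd19 beside Plekhg4, and Duoxa2 beside Duoxa1. Prl2c3, Clec2h and H1f1 have close paralogs, and their reads are uncertain in the same way.

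Neither TEB-distal library led the set. After normalization 28 of the 56 were higher in the second library, and the ratio of the second to the first had a median of 0.995 and ranged from 0.149 for Acbd7 to 4.71 for Dnah7a. The libraries were within 2-fold of each other for 33 of the 56 (58.9%), and for 50.1% of the 12038 symbols with at least 20 reads in both. With 2 libraries the rule itself bounds how far the weaker can fall, so these shares are given without a test.

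**Figure D2:**
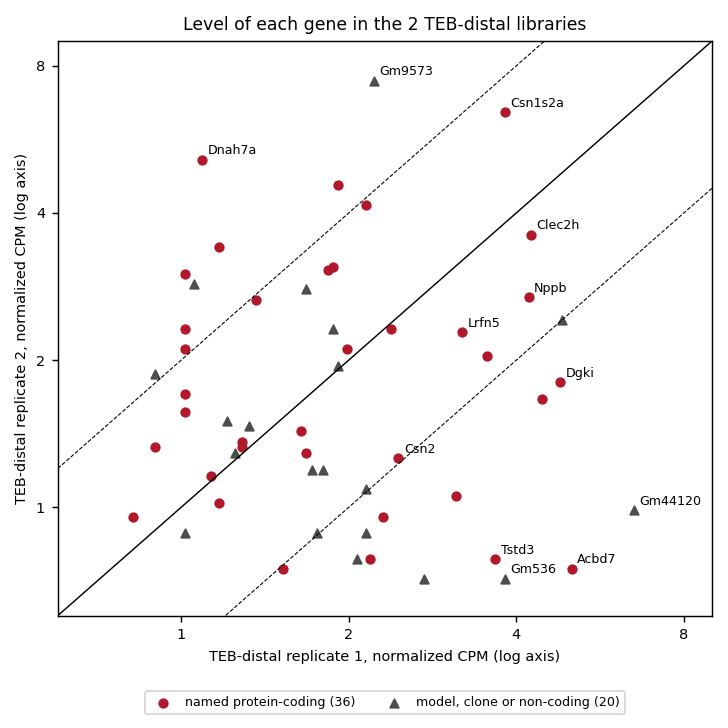
Normalized CPM of each of the 56 genes in the first (x axis) and second (y axis) TEB-distal library, both on log axes, with named protein-coding genes as circles and gene models, clones and non-coding genes as triangles. The solid line marks equal levels and the dashed lines a 2-fold difference. Dnah7a lies farthest to the side of the second library and Acbd7 and Gm44120 to that of the first.

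The same rule was then applied to every pair of the 6 libraries. The TEB-distal pair, with 56 genes, ranked second of 15. The first Gpr125-negative library and the first TEB-distal library, which are of different conditions, shared 65 genes that the other 4 libraries lacked, and the first Gpr125-negative and the second TEB-distal library shared 51. The 2 Gpr125-negative libraries shared 26 and the 2 nipple-proximal libraries 22. The other pairs of the first Gpr125-negative library held 18 genes with the first and 17 with the second nipple-proximal library. The second Gpr125-negative library shared 13 genes with the first and 12 with the second TEB-distal library, and 2 with each nipple-proximal library (Gm26686 and Sult1a1 with the first, Gm48369 and Syn2 with the second). Pairs of a TEB-distal and a nipple-proximal library held 11, 9, 8 and 4 genes, the 11 being those of the first TEB-distal and second nipple-proximal library, the 9 of the first of each, the 8 of the second of each, and the 4 (Adamtsl2, Pdia2, Rufy4 and Slc2a12) of the second TEB-distal and first nipple-proximal library. The median of the 14 other pairs was 12.5.

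The 3 libraries behind the 3 largest pairs also had the most genes of their own. With at least 20 reads in a single library and at most 3 in the other 5, 477 genes were found in the first Gpr125-negative, 346 in the first TEB-distal and 315 in the second TEB-distal library. The second Gpr125-negative library had 135 such genes and the nipple-proximal libraries 31 and 61. Library totals did not follow this order, since the second Gpr125-negative library, with 33300561 reads, was deeper than both TEB-distal libraries. Symbols with at least 20 reads numbered 15343 in the first Gpr125-negative library and 14206 and 14425 in the TEB-distal libraries. They numbered 11911 in the second Gpr125-negative library and 13030 and 13088 in the nipple-proximal libraries. Why these 3 libraries held more genes of their own was not tested.

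**Figure D3:**
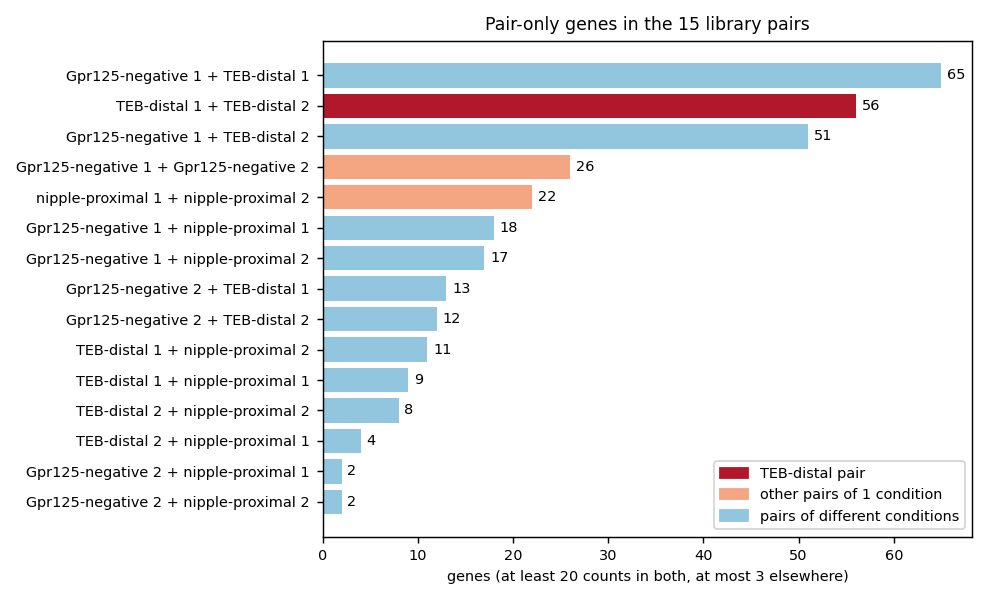
Number of genes with at least 20 reads in both libraries of a pair and at most 3 in each of the other 4 (x axis), for all 15 pairs of the 6 libraries (y axis). The dark red bar is the TEB-distal pair, with 56 genes, below the 65 of the first Gpr125-negative and first TEB-distal library. Orange bars are the other pairs of a single condition and blue bars the pairs of different conditions.

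The count moved with its limits, and so did its rank. With 10 reads in place of 20, 103 genes were found in the TEB-distal pair, and with 50 reads 11, while the first Gpr125-negative library paired with the TEB-distal libraries held 149 and 126, and 14 and 13. With no read allowed elsewhere the TEB-distal pair held 27 genes, against 35 in the first Gpr125-negative and first TEB-distal library. When all libraries were scaled to the smallest total of 20134890 reads before the same limits, the TEB-distal pair held 42 genes, 41 of them from the set, and no other pair held more than 38.

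**Figure D4:**
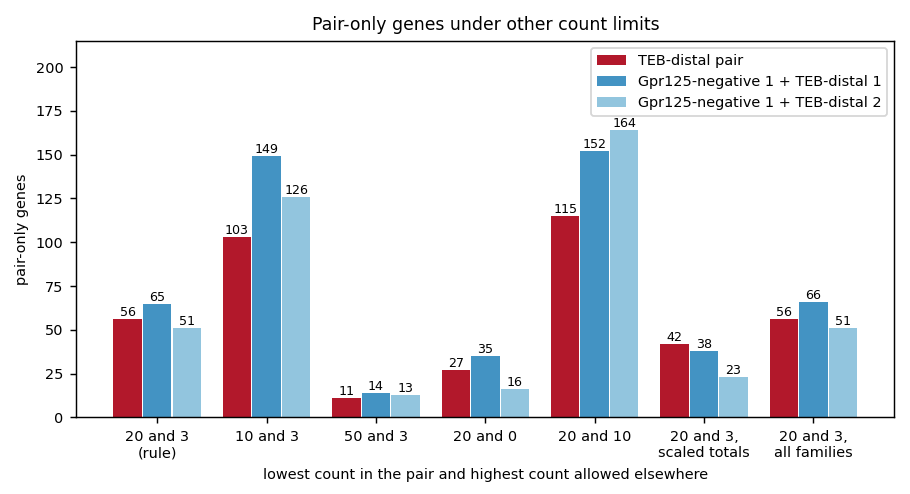
Number of pair-only genes (y axis) in the TEB-distal pair and in the first Gpr125-negative library paired with each TEB-distal library, for 7 choices of the lowest count in the pair and the highest count allowed elsewhere (x axis). The TEB-distal pair has the tallest bar of the 3 only when counts are scaled to the smallest library total, with 42 genes against 38 and 23.

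At the edge of the set, Gm45570 and Gm536 had 21 reads in their weaker TEB-distal library, the lowest value found, while 6430710M23Rik, Gm38165 and Odf1 were left out with 19. The lower TEB-distal count was 30 or less for 25 of the 56 genes, and 47 further genes with 10 to 19 reads and at most 3 elsewhere fell outside. On the other side, 11 genes of the set had 3 reads in some other library, C9, Casq2 and Gm6059 among them, and 4933407L21Rik, Gm16027 and Gm29509 were left out with 4. With these, 24 genes in all had 4 to 6 reads in the highest other library.

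In the comparisons across all genes, each of the 56 passed the filter on low counts, as it had to with these levels in both TEB-distal libraries. By edgeR's quasi-likelihood test over 17268 genes 0 of the 56 were called higher in TEB-distal than in Gpr125-negative cells at a false discovery rate (FDR) under 0.1 and at least 2-fold, and 0 of all genes (0%). The same test called 0 of the 56 and 0% of all genes higher in TEB-distal than in nipple-proximal cells. At an unadjusted p under 0.05 in edgeR's test, 51 of the 56 were higher than in Gpr125-negative cells, where 3.8% of all genes were, and 38 were higher than in nipple-proximal cells, where 0.747% were. DESeq2 on the 4 libraries of each comparison called 36 of the 56 against Gpr125-negative cells (1.43% of all genes) and 28 against nipple-proximal cells (0.701%). DESeq2 on all 6 libraries called 35 (1.92%) and 9 (0.14%). Both TEB-distal libraries lay above the other 4 in normalized CPM for 6.65% of the 17268 genes and, by the rule, for all of the 56. The rule drew on these very contrasts, which moreover share the TEB-distal libraries, so nothing is read from the counts.

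The gene lists examined beside the set give its surroundings. By edgeR's test 0 genes of any list passed in either comparison, as 0 did of all genes. DESeq2 on 4 libraries called 389 genes higher and 278 lower of all 27210 in TEB-distal against Gpr125-negative cells, and 192 higher and 168 lower of all 27380 against nipple-proximal cells. By the same fits, 9 of 152 ion channel genes tested were higher and 3 lower in TEB-distal than in Gpr125-negative cells, and 5 of 166 were higher and 3 lower against nipple-proximal cells, Chrna4, which the rule chose on these contrasts, being among the higher in both. Of the synaptic and neurite adhesion genes 2 of 35 were higher, Lrrtm1 and the member Lrfn5, and 1 was lower against Gpr125-negative cells, and Lrfn5 was the only one of 34 higher against nipple-proximal cells, with 1 lower. Cytoskeletal and motor genes, which include Dnah7a among the higher in both by the same choice, were higher in 10 of 182 and lower in 0 against Gpr125-negative cells, and higher in 3 of 187 and lower in 1 against nipple-proximal cells. Of the developmental transcription factors 3 of 135 were higher and 6 lower against Gpr125-negative cells, and 0 of 151 were higher and 2 lower against nipple-proximal cells. None of the 56 was in the lists of solute carriers, cadherins and protocadherins, zinc finger genes, growth factors and receptors, proteases and inhibitors, G-protein-coupled receptors or embryonic mammary and placode genes, nor among the markers of any of the 14 cell types listed. Some lists without a member held called genes by the same DESeq2 fits. Of 12 endothelial markers 0 were higher and 10 lower against Gpr125-negative cells, and 0 were higher and 5 lower against nipple-proximal cells. Growth factors and receptors were higher in 7 of 114 and lower in 3 against Gpr125-negative cells. Against nipple-proximal cells they were higher in 7 of 116 and lower in 4.

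The rule used no annotation, and the annotated classes are given as a description. Of the 54 found in GENCODE M21, 35 (64.8%) were protein-coding. The share was 90.4% of the 11861 symbols of that annotation with at least 20 reads in both TEB-distal libraries. Long non-coding RNAs made up 16.7% against 4.26%, TEC models 9.26% against 1.01%, pseudogenes 7.41% against 3.92% and small RNAs 1.85% against 0.27%. The pair-only genes of the other 14 pairs were protein-coding in 132 of 255 (51.8%), with 41.5% in the first Gpr125-negative and first TEB-distal library, 38.5% in the Gpr125-negative pair and 90.5% in the nipple-proximal pair. The median summed exon length was 2727.5 bases in the 54 annotated genes of the set and 4263.0 bases over the same 11861 symbols. Another annotated gene was overlapped by 44.4% of the 54 and by 55.7% of the 11861. The 11861 symbols were mostly more abundant, with a median of 21.4 normalized CPM against 1.89 in the set. The part of abundance in these differences was not tested. The 56 genes lay on 20 chromosomes, at most 6 on any of them (chromosome 6).

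**Figure D5:**
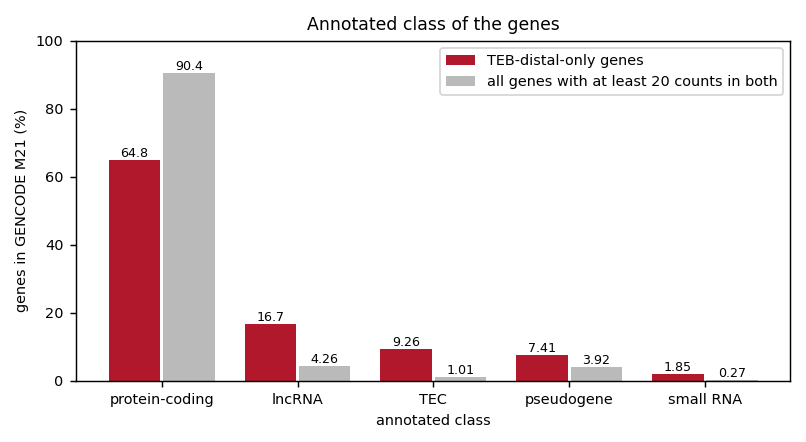
Share of genes in each class of the GENCODE M21 annotation (y axis, percent) for the 54 annotated TEB-distal-only genes (red) and for the 11861 annotated symbols with at least 20 reads in both TEB-distal libraries (grey). Protein-coding genes make up 64.8% of the first and 90.4% of the second.

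A promoter window from RefSeq was available here for 31 of the 56 genes. Its median GC content was 54.7%, against 61.0% in the 11523 windows of symbols with at least 20 reads in both TEB-distal libraries and 52.7% in all 32851 windows, and the median number of CG dinucleotides was 7, 21 and 7. At most 5 CG dinucleotides were found in 12 of the 31 windows (38.7%), in 11.4% of the windows of TEB-detected symbols and in 43.6% of all windows. The TEB-detected symbols were mostly more abundant than the set, and the part of abundance in the promoter differences was not tested. On either strand TATAAA was in 6 of 31 (19.4%), against 13.6% of all windows and 7.16% of those of TEB-detected symbols. ACAAAG was in 7 (22.6%, against 18.7% and 13.5%), AACAAT in 0 (against 10.7% and 5.55%) and the E-box CANNTG in 19 (61.3%, against 72.3% and 63.4%). TTCNNNGAA, added after the casein genes had been seen, was in 5 of 31 (16.1%, against 8.3% and 6.6%), those of Csn2, Csn1s2a, Itih4, Lrfn5 and Prl2c3. The casein genes that led to its choice are among the 5, so the share is a description and no test.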

How the data were processed

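RNA was measured in 6 libraries (2 Gpr125-negative, 2 TEB-distal, 2 nipple-proximal) made with a low-input SMART-Seq kit without molecular identifiers, so floors and intervals cover counting error only. The authors aligned reads to mm10 with STAR (version 2.7.3 in the submitters' processing notes, a different one in the paper) and counted them per gene with HTSeq. The deposited counts are whole reads per symbol, without strand, normalization or rows for unassigned reads. The annotation release is not given in the sources used here. Groups came from the sample titles. Each library is a pool of 5 mice, and nothing says that the pools of a group are separate mice, so p-values measure only the spread between these samples, which may be technical.

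Membership used raw counts (at least 20, at most 3). Normalized CPM used TMM factors. A fold against a group at 0 was set at 3 counts per library; ratios against 1 to 3 reads carry an exact 95% interval. In R 4.3.3, edgeR 4.0.16 (TMM, filterByExpr, estimateDisp, robust glmQLFit, glmQLFTest) was fitted to all 6 libraries, 17268 genes, with Benjamini-Hochberg adjustment; DESeq2 1.42.0, other size factors, no filter, a replicate block, other limits and leaving out each library were alternatives. Scripts were tested on simulated counts. Named genes were the first 25 named coding members and first 3 others by their lower TEB-distal CPM, members of the gene lists, those at each limit, Lrfn5 and Sox11. Pde3a, Duoxa2, Dbil5, Pla2g4f, Best3, Klhl35, Tstd3, Crtam, Acbd7, Prl2c3, the other milk genes, Duox2, Adgra3, Lrrtm1, the Dnah7a relatives and the genes of the smallest pairs were named after their values were seen. The members and lists were chosen with earlier results of these data known. Coordinates are from GENCODE M21 (GRCm38), or from RefSeq GRCm38.p6 for Cblif and H1f1. The values of 2 members are not reported here one by one, though they enter the counts.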

Additional observations from a re-analysis of the deposited data

How the results depend on the processing

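The number of TEB-distal-only genes was 56 by the rule, 103 with 10 reads and 11 with 50 reads needed in both libraries, 27 with 0 and 115 with 10 reads allowed elsewhere, and between 62 and 429 without 1 library, with 409 and 429 without the first or the second TEB-distal library, where the rule rests on a single one, 88 without the first Gpr125-negative and 94 without the second nipple-proximal library. At least as many genes were found in 1 other pair by the rule, in 2 with 10 reads, in 2 with 50 reads, in 2 with 10 reads allowed elsewhere and in 0 after scaling to the smallest library. edgeR's quasi-likelihood test called 0 of the 56 in both comparisons, also without each library. Of all genes, in either direction, it called 0 in both. Against Gpr125-negative cells DESeq2 called 35 of the 56 and 943 genes in all with 6 libraries, and 36 and 667 with 4. Against nipple-proximal cells it called 9 and 129 with 6, and 28 and 360 with 4. Without the filter on low counts edgeR called 137 and 39 genes in all, and 0 of the 56. Without 1 library it called 0 to 747 genes against Gpr125-negative cells, with 747 without the first and 4 without the second Gpr125-negative library and 45 and 46 without the first or second nipple-proximal library, and 0 to 12 against nipple-proximal cells, the 12 without the second nipple-proximal library. A library left alone in its group is then assumed to vary like the others. The cause of these shifts was not tested.

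With the replicate block edgeR called 0 genes and 0 of the 56 in both comparisons, as without it. The deviations of same-numbered libraries correlated at -0.0347 between Gpr125-negative and TEB-distal, 0.194 between Gpr125-negative and nipple-proximal, and -0.00495 between TEB-distal and nipple-proximal libraries, so the numbers were not taken as a pairing. Whether same-numbered libraries share mice was not given. With 2 libraries against 2, an exact permutation test cannot give a two-sided p below 0.333.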
